A study of Homo sapiens with 3 samples.

Results

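The 55 genes described here code for proteins that hold liver and other epithelial cells to each other and to the matrix, together with the surface receptor CD44. They are cadherins and catenins of the adherens junction, desmosome proteins, tight and gap junction proteins, integrins, laminins, collagens and fibronectin, matrix proteases and their inhibitors, and the regulators that switch cells between an epithelial and a mesenchymal state. They were listed by name, with earlier results of these data known, and the question asked of them was whether epithelial or mesenchymal adhesion genes moved with CD44, a gene that the study counts among those of poor differentiation. Of the 55 genes, 54 were named by the RefSeq accession of at least 1 probe on the array, with 66 probes in all, out of 19740 gene symbols named in the whole series. TJP3 had no named probe.

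Total RNA came from Huh7 cells, an established human hepatoma line, that were either untreated or exposed to chlorogenic acid for 24 h. This phenolic ester of plants, abbreviated CA, was given at 50 μM (CA 50 μM) or 100 μM (CA 100 μM). The study's methods give the solvent, dimethyl sulfoxide, as the reference for untreated cells, whereas the labels give no treatment for that sample. After the exposure the cells were detached with trypsin and taken up in medium without serum, a step named for the series as a whole. Its effect on genes of attachment was not tested. Each group is 1 one-colour Agilent array, 3 arrays in all, so that no difference below has a replicate check and no test across samples was possible.

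Signals are given in percent of the 75th percentile of the gene spots on the same array, which was 1059, 1207 and 1249 intensity units without CA, at CA 50 μM and at CA 100 μM. Ratios are log2 differences between arrays on that scale, and a signal counts as measured where the scanner software marked it well above background. Probes were also divided by signal into 4 classes of equal size. As a measure of technical error, probes printed 10 times had a median spot-to-spot SD of the log2 ratio of 0.065 for CA 50 μM against untreated, from 0.19 in the dimmest class to 0.051 in the brightest. It holds nothing of the variation between cultures or RNA preparations. An area of the CA 100 μM array with 5.71% of its gene spots was disturbed, meaning that many probes dim on the other arrays were bright there, and it is said below where spots of a member lie in it. Of 12 hepatocyte-derived markers, 10 were measured without CA, 11 at CA 50 μM and 11 at CA 100 μM. ALB and AFP were measured on all 3 arrays, whereas HNF4A was measured at CA 50 μM alone. TF had a value at CA 100 μM alone, 1047% of the 75th percentile. On the other arrays its spots were left out for an outlier flag, so that its absence there does not mean a low signal. Among the basal epithelial markers KRT5, TP63, KRT6A and KRT14, the single one measured was KRT14.

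Epithelial cells are joined by adherens junctions and desmosomes, in which cadherins bind cadherins of the next cell and are tied through catenins and plakoglobin to actin or keratin filaments, and by tight junctions that seal the space between cells. Integrins bind the laminins, collagens and fibronectin of the matrix, and the pair of the α6 and β4 integrins together with collagen XVII forms the hemidesmosome, which rivets basal epithelial cells to the laminins beneath them. When such cells turn mesenchymal, E-cadherin (CDH1) and other epithelial genes are shut down by regulators of the SNAI, TWIST and ZEB families, and N-cadherin (CDH2), vimentin (VIM) and fibronectin (FN1) are raised. CD44 is the main cell-surface receptor for hyaluronan, a sugar polymer of the matrix, and in the liver it marks progenitor and tumor cells.

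The 5 stretches below are shown because they lie before the transcription starts of CD44 and of the members with a promoter sequence in the table used that were at least 1.5-fold from untreated at either dose. They come from RefSeq on GRCh38.p14, read 5′ to 3′ on the strand of the gene, and each of the first 4 holds the 250 bases before the start. Capitals mark E-box letters CACCTG or CAGGTG, which ZEB and SNAI proteins bind, GC box letters GGGCGG or CCGCCC, which Sp1 binds, and TATA letters TATAAA or TTTATA, so that both strands were searched.
CD44, chr11:35138921-35139170, plus strand: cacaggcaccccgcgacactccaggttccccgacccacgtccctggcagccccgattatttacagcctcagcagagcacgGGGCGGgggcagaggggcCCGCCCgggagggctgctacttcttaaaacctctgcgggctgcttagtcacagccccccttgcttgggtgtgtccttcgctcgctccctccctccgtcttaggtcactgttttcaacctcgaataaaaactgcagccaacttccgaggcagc
COL17A1, chr10:104085881-104086130, minus strand: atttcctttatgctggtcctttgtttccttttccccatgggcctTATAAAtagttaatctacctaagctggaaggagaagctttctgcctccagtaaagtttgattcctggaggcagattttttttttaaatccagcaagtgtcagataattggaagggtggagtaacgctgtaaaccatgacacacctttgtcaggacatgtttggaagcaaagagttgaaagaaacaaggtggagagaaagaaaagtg
LAMA5, chr20:62367313-62367562, minus strand: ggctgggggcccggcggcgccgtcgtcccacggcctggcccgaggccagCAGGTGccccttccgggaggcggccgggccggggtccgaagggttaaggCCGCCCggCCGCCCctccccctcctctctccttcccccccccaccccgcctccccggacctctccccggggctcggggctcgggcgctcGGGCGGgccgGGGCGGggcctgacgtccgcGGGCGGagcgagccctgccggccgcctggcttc
MMP14, chr14:22836335-22836584, plus strand: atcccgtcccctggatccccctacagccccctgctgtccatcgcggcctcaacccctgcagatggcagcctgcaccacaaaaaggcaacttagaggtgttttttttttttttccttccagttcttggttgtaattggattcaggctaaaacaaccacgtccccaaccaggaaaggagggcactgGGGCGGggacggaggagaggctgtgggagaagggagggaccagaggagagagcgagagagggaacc
COL4A1 and COL4A2, the 126 bases between their starts, chr13:110307158-110307283, plus strand: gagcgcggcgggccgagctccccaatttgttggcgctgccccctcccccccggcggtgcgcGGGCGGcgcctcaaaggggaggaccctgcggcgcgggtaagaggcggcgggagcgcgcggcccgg

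The CD44 window held 2 GC boxes and no E-box, the COL17A1 window a TATA sequence alone, the LAMA5 window 5 GC boxes and 1 E-box, and the MMP14 window 1 GC box. COL4A1 and COL4A2, the chains of type IV collagen, are read away from each other out of 1 shared stretch. Promoter entries were found for 38 of the 55 genes. Each window of the table holds 250 bases before a start and 50 after it. The E-box letters stood in at least 1 window of 12 of these 38 genes, and in 14 of the 63 windows of members (22.2%), beside 17.5% of all 35116 windows of the table. The GC box letters stood in 60.3% of the members' windows and in 42.6% of all windows.

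CD44 signal was 59.4% of the 75th percentile on the untreated array, 41.1% with CA 50 μM and 49.7% with CA 100 μM. It was therefore highest without CA and lowest at the smaller dose, with log2 ratios of -0.53 and -0.26 against untreated and 0.27 between the doses. The spot-to-spot SD of probes of like signal was 0.060. CD44 was represented by 1 probe on 1 spot. Of all genes measured, 2.88% lay lower than CD44 at the smaller dose and 10.8% at the larger. Among the members, CDH3, ITGB4 and COL17A1 did at both doses, and PKP3 also did at the larger.

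No member measured on all 3 arrays, CD44 included, differed 2-fold between them. Of the 55 genes, 49 were measured on all 3 arrays, and 0 of these 49 were at least 2-fold apart in any comparison, where the share over all genes was 0.973% for CA 50 μM against untreated, 0.642% for CA 100 μM against untreated and 0.668% between the doses. At CA 50 μM, 3 members were at least 1.5-fold lower, the cadherin CDH3, the integrin ITGB4 and the collagen COL17A1, where 2.17% of all genes were, and 2 were at least 1.5-fold higher, the laminin LAMA5 and the protease MMP14, where 4.15% of all genes were. LAMA5 passed by a small margin and lay between 0.38 and 0.54, under 1.5-fold, with each other scaling or background correction. At CA 100 μM, COL17A1 was the single member at least 1.5-fold lower, beside 1.53% of all genes, and MMP14 and COL4A2 were higher, beside 1.64% of all genes. Between the doses, COL4A2 and the protease inhibitor TIMP1 were at least 1.5-fold higher at CA 100 μM, beside 1.39% of all genes, and 0 members were lower, beside 1.53%. Normexp background correction left CDH3 and ITGB4 alone at 1.5-fold, both at CA 50 μM.

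Small negative ratios were common among the members and among all genes. At CA 50 μM, 32 of the 49 members lay below 0, beside 56.3% of all genes, with a median of -0.11 for the members and -0.04 for all genes. At CA 100 μM, 31 of the 49 did, beside 57.7% of all genes, with medians of -0.07 and -0.03. Both comparisons use the same untreated array. The sign at CA 50 μM went with signal: 21 of the 49 members lay in the brightest class, where 70.2% of all genes were below 0 and 17 of the 21 members were. When each member was set against the median of all genes of its own signal class, 27 of 49 lay below it at the smaller dose and 29 of 49 at the larger. The part of signal in the members' medians was not tested further. The lower end of the distribution held more members than the upper at CA 50 μM. Of the 49, 9 lay below the 5th percentile of all genes (-0.44), namely CDH3, ITGB4, COL17A1, CD44, ITGA2, PKP3, CLDN4, TIMP1 and TIMP2, the last 3 by a small margin, and 2 lay above the 95th (0.55). Across the other settings, between 5 and 9 lay below it, fewest with no filter on dim probes. At CA 100 μM, 3 lay below (CDH3, ITGB4 and COL17A1) and 3 above.

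**Figure D1:**
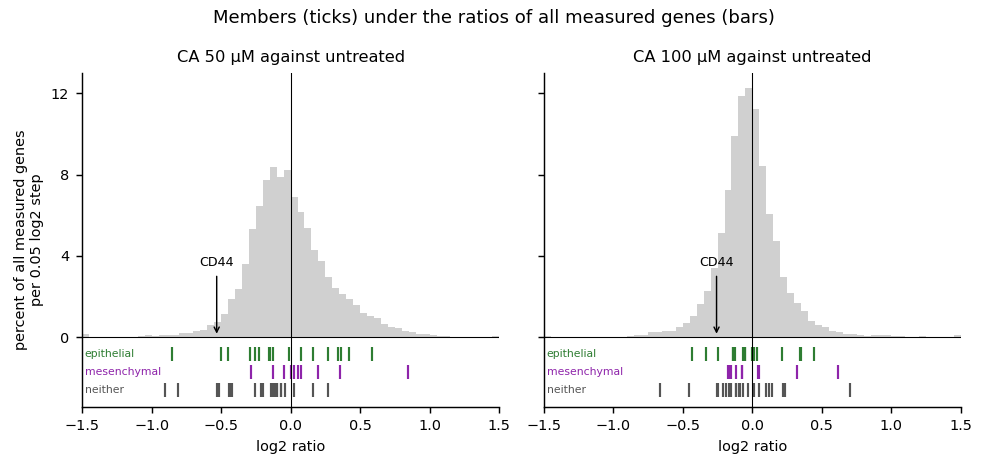
Log2 ratio to the untreated array (x axis) of all measured genes as grey bars (percent of genes per step of 0.05, y axis) and of the 49 measured members as ticks in rows for epithelial, mesenchymal and other members, at CA 50 μM and CA 100 μM. At CA 50 μM, 9 ticks lie below the 5th percentile of all genes and 2 above the 95th, and the arrow marks CD44 at -0.53 and -0.26.

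Epithelial and mesenchymal members were each mixed in direction, and of both classes ITGB4 alone lay lower than CD44 at both doses. CDH3 and COL17A1, genes of basal epithelial cells that also did, had been placed in neither class. The result for epithelial members therefore depends on that choice. The 18 epithelial members were CDH1, JUP, 4 desmosome genes, 8 tight and gap junction genes, ITGB4, LAMA5, ESRP1 and ESRP2, of which 17 were measured, and the 13 mesenchymal members were CDH2, VIM, FN1, the SNAI, TWIST and ZEB genes, ITGA5, ITGAV, MMP2, MMP9 and MMP14, of which 10 were. Epithelial members had a median log2 ratio of -0.13 at CA 50 μM with 10 of 17 (58.8%) below 0, near the 56.3% of all genes. Mesenchymal members had a median of 0.04 with 3 of 10 below 0. That median turned to -0.0075 under centring on the median of measured probes and to -0.04 under normexp background correction. At CA 100 μM, 11 of 17 epithelial members and 6 of 10 mesenchymal ones lay below 0, beside 57.7% of all genes. The medians there were -0.05 for epithelial and -0.07 for mesenchymal members. Both signs turned with the processing. For the epithelial members there, cyclic loess, which removes differences that go with signal, gave 0.0015, and for the mesenchymal members averaging all probes of each gene gave 0.04. The dimmest probe of a gene gave epithelial medians of 0.07 and 0.01 at the smaller and larger dose and mesenchymal medians of 0.12 and 0.04. The ranges of both classes overlapped at each dose, from -0.85 to 0.59 for epithelial and from -0.29 to 0.84 for mesenchymal members at CA 50 μM.

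**Figure D2:**
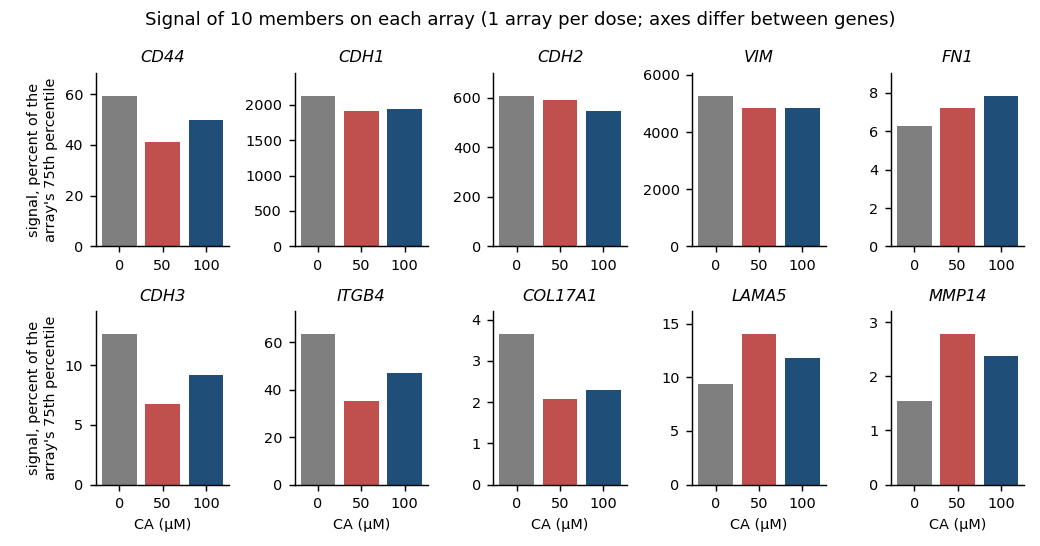
Signal in percent of the 75th percentile of the array (y axis, from 0, scaled for each gene) of 10 members by array (x axis, CA dose in μM, with 0 for untreated), 1 bar for each array and no error bar since each group is 1 array. CD44, CDH3, ITGB4 and COL17A1 were lowest at CA 50 μM, LAMA5 and MMP14 highest there, and CDH1, CDH2, VIM and FN1 stayed within 1.25-fold of untreated.

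In the adherens junction, 5 of 6 genes lay below 0 at the smaller dose and 6 of 6 at the larger, with medians of -0.12 and -0.13, beside 56.3% and 57.7% of all genes and 70.2% and 68.0% of those in the brightest class. The count rests on the brighter probes, since CDH2, CTNNA1 and CTNND1 each lay above 0 at both doses by a dimmer one. CDH3, or P-cadherin, the cadherin of basal epithelial layers, went from 12.6% of the 75th percentile without CA to 6.75% with CA 50 μM and 9.23% with CA 100 μM. These are log2 ratios of -0.90 and -0.45, the lowest of the 49 ratios at the smaller dose, and 1.02% of all genes in its signal class lay lower. CDH1, the E-cadherin that defines epithelial cells, was at 2125%, 1911% and 1934%. Its ratios of -0.15 (SD 0.051 over 8 spots) and -0.14 (SD 0.064 over 8 spots) stood below the medians of genes in the brightest class, -0.10 and -0.05. They shrank to -0.02 and -0.04 under cyclic loess, to -0.04 and -0.05 under quantile normalization and to -0.04 at both doses in the authors' table. All of these were smaller than the SD between single spots, which is not the error of a mean over spots. JUP, plakoglobin, was at 314%, 397% and 303%, higher at CA 50 μM alone with a log2 ratio of 0.34.

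CDH2, or N-cadherin, which hepatocytes express beside E-cadherin, was measured by 2 probes that parted in sign. The brighter gave 609%, 589.8% and 548%, and the dimmer 120.4%, 148% and 141%. The log2 ratios were -0.05 and -0.15 for the first and 0.30 and 0.23 for the second, whose spots at both doses carry a background flag. The sign of CDH2 therefore rested on the probe and on the scaling, since quantile normalization, cyclic loess and the authors' log2 table gave small positive values at CA 50 μM. CTNNA1 and CTNND1, the catenins αE and p120, parted in the same manner, with -0.10 and -0.14 for the brighter probes and 0.32 and 0.43 for the dimmer ones at CA 50 μM. The CA 100 μM spot of the dimmer CTNNA1 probe lay in the disturbed area.

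**Figure D3:**
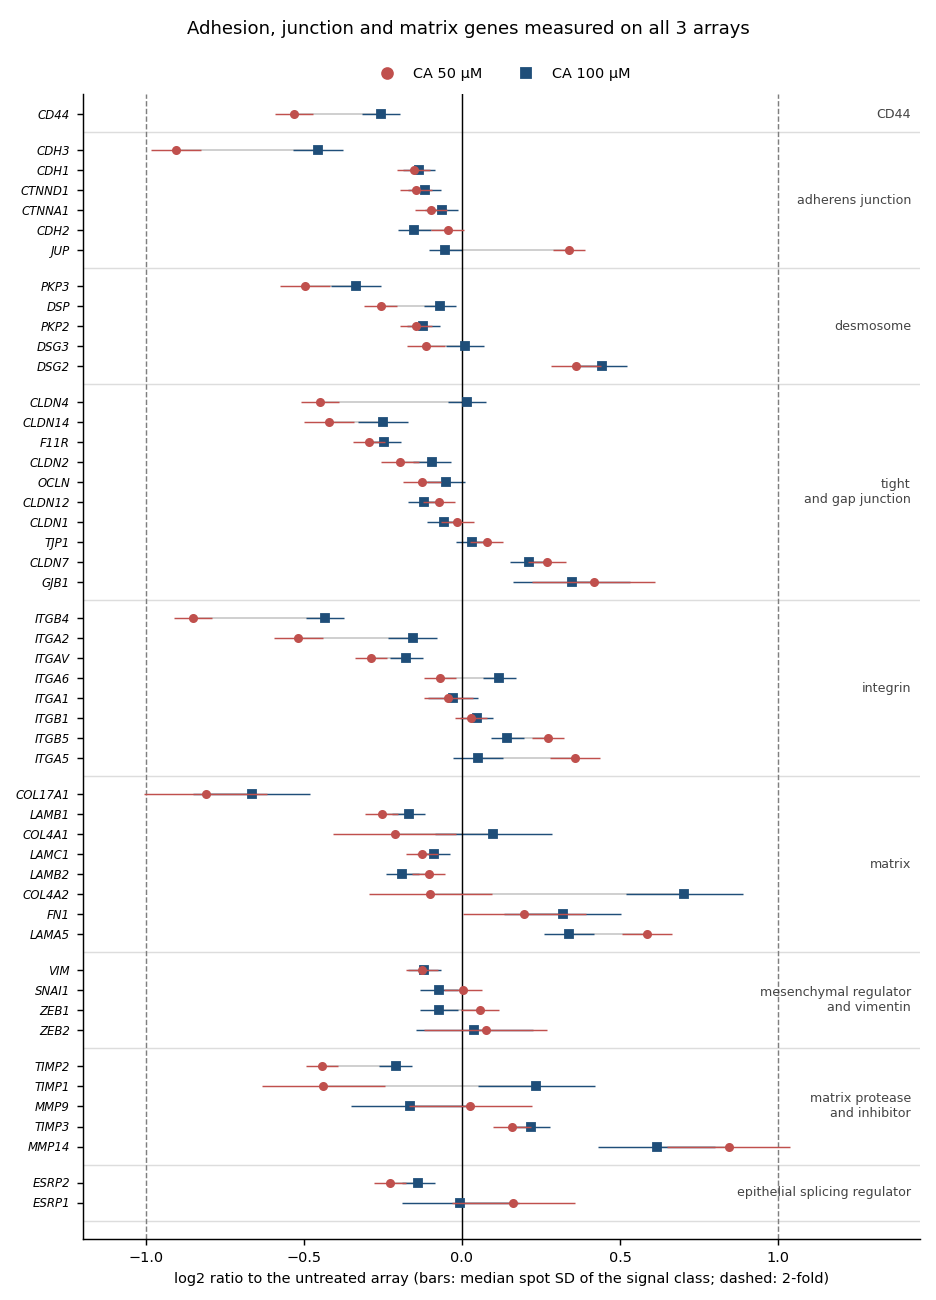
Log2 ratio to the untreated array (x axis) at CA 50 μM (circles) and CA 100 μM (squares) for the 49 measured members, grouped by role and ordered by the value at CA 50 μM. Bars give the median spot-to-spot SD of probes of like signal, which leaves out the variation between cultures, and no point reaches the dashed lines at 2-fold.

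Desmosome genes moved apart from one another. PKP3, plakophilin 3 of the desmosome plaque, was at 30.8%, 21.8% and 24.4%, with log2 ratios of -0.50 and -0.33, and its CA 100 μM spot lay in the disturbed area. DSG2, the desmosomal cadherin found in all epithelia, was at 13.4%, 17.2% and 18.3% and so stood higher at both doses, by 0.36 and 0.44. DSP and PKP2, desmoplakin and plakophilin 2, had ratios of -0.26 and -0.15 at CA 50 μM and -0.07 and -0.12 at CA 100 μM, while the dimmer DSP probe gave 0.08 and 0.06. DSG3, a desmosomal cadherin of stratified epithelia, had -0.11 and 0.01.

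Of the 12 tight and gap junction genes, 10 were measured on all arrays. With CA 50 μM 7 of the 10 lay below 0 and with CA 100 μM 6, beside 56.3% and 57.7% of all genes. CLDN4, a claudin of tight epithelia, was at 94.2%, 69.0% and 95.1%, lower at CA 50 μM by a log2 ratio of -0.45 and level with untreated at CA 100 μM (0.01). CLDN14 was at 8.34%, 6.23% and 7.01%, with -0.42 and -0.25. F11R, the junctional adhesion molecule A, had -0.29 and -0.24 from the brighter of its probes, whereas the dimmer gave 0.07 and 0.22. GJB1, the connexin 32 of hepatocyte gap junctions, stood on the other side with 0.42 and 0.35 (0.15 and 0.10 under normexp), and CLDN7 with 0.27 and 0.21. CLDN1, CLDN2, CLDN12, OCLN and TJP1, which build or anchor tight junction strands, lay between -0.20 and 0.08 at both doses by their brighter probes, and the dimmer CLDN12 probe gave 0.06 and 0.29.

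CLDN5, the claudin of vessel walls, was well above background on the untreated array alone. It read 46.4 intensity units there, 2.83 with CA 50 μM and 3.21 with CA 100 μM, so that it was at least 4.21-fold and at least 3.68-fold lower, each bound being set by the dimmest probe well above background on the CA array. Its untreated spot lay in a disturbed area and carried a background flag, and without disturbed areas no value is left. Of 8 endothelial markers, 4 (PECAM1, VWF, CDH5 and ESAM) were measured on each array, with a summed signal between 80.2% and 94.7% of the 75th percentile, highest at CA 50 μM. KDR, TEK and TIE1 were not well above background on the arrays.

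Among the 9 integrin genes, ITGB4, the β4 chain of the hemidesmosome, stood out at the smaller dose. Its signal was 63.5% without CA, 35.2% with CA 50 μM and 47.0% with CA 100 μM. The log2 ratios were -0.85 and -0.43, and 0.243% and 1.09% of the genes of its signal class lay lower. ITGA2, which pairs with ITGB1 to bind collagen, was at 20.8%, 14.5% and 18.7%, with -0.52 and -0.16. ITGAV, the αV chain of vitronectin receptors, had -0.29 (SD 0.030 over 10 spots) and -0.18 (SD 0.067 over 10 spots, 2 of them in the disturbed area). ITGA5 and ITGB5, chains of fibronectin and vitronectin receptors, lay higher by 0.36 and 0.27 at CA 50 μM and by 0.05 and 0.14 at CA 100 μM, where the ITGB5 spot had a background flag.

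ITGB1, the β chain that most of these pairs share, had ratios of 0.03 (SD 0.080 over 10 spots) and 0.05 (SD 0.059 over 9 spots). Each was smaller than the SD between single spots, which is not the error of a mean over spots. ITGA1 had -0.04 and -0.03, and ITGA6, the partner of ITGB4, -0.07 and 0.12, while its dimmer probe gave 0.07 and 0.14. ITGA3, a laminin-binding chain, read 6.17, 12.1 and 42.4 intensity units and was well above background at CA 100 μM alone. It was at least 2.94-fold higher there than untreated and at least 3.27-fold higher than at CA 50 μM, from 1 spot outside the disturbed area.

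In the matrix group, COL17A1, the transmembrane collagen of the hemidesmosome, was the single member at least 1.5-fold lower at both doses, as were 118 of the 14546 genes measured throughout. It was at 3.65%, 2.08% and 2.30%, with log2 ratios of -0.81 and -0.66, where the spot-to-spot SD of such dim probes was 0.19 and 0.18. Its signals of 38.6, 25.1 and 28.7 units were low, and normexp background correction brought both ratios to -0.37. LAMA5, the α5 laminin chain of mature epithelial basement membranes, was at 9.35%, 14.0% and 11.8%, with 0.59 and 0.34, and with 0.38 and 0.18 under normexp.

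The remaining laminin members LAMB1, LAMB2 and LAMC1 lay below 0, between -0.25 and -0.09 at both doses, though the dimmer LAMB2 probe gave 0.13 and 0.06. COL4A2 was at 4.43%, 4.13% and 7.21%. Its log2 ratios were -0.10 and 0.70 (-0.21 and 0.17 under normexp), and its CA 100 μM spot lay in the disturbed area, whereas COL4A1, across the shared promoter shown above, gave -0.21 and 0.10 from a spot outside it. FN1, fibronectin, was at 6.30%, 7.22% and 7.85%, higher at each dose by 0.20 and 0.32 with a spot-to-spot SD of 0.19 and 0.18 for dim probes, and by 0.01 and 0.11 under normexp.

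ITGB4 and COL17A1 were lower at CA 50 μM together with LAMA3 and LAMB3, laminin chains of the epithelial basement membrane. Neither laminin gene is a member, and both were picked after their values were seen, from a list of other matrix genes. Of the 27 genes of that list measured at CA 50 μM, 3 were at least 1.5-fold lower and 1 higher, beside 2.17% and 4.15% of all genes. Some lay on the other side, such as LAMC3 with 0.66 and VTN with 0.54. LAMA3 was at 84.7%, 58.3% and 63.3%, with log2 ratios of -0.54 and -0.42, and its CA 100 μM spot lay in the disturbed area. LAMB3 was at 44.2%, 28.2% and 44.9%, with -0.65 and 0.02. LAMA3 was thus lower than untreated at both doses, whereas LAMB3 was lower at CA 50 μM and level with untreated at CA 100 μM.

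The other hemidesmosome genes were mixed in direction. Among the genes that follow, DST, CD151 and KRT14 were picked after their values were seen. PLEC, the plectin that ties the structure to keratin, was higher by 0.40 and 0.47, with its CA 100 μM spot in the disturbed area. DST, dystonin, had 0.05 and -0.05 by its brightest probe and -0.23 and -0.48 by its dimmer probes at CA 50 μM. CD151, a tetraspanin bound to the α6β4 integrin, had -0.29 and -0.19. KRT14, a keratin of basal epithelial cells, where hemidesmosomes are found, moved more than any of these, from 28.9% without CA to 8.21% with CA 50 μM and 61.3% with CA 100 μM, while KRT5, TP63 and KRT6A stayed at background. The part of basal cells in these values was not tested.

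**Figure D4:**
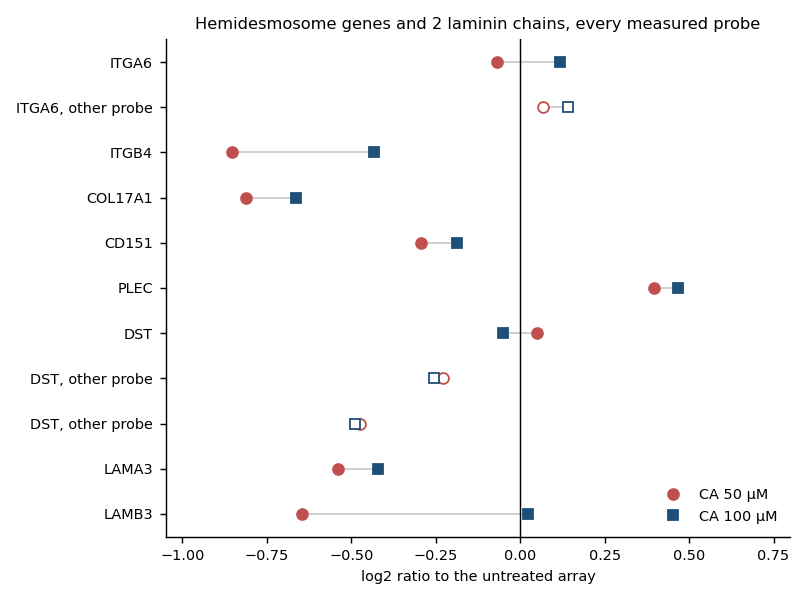
Log2 ratio to the untreated array (x axis) at CA 50 μM (circles) and CA 100 μM (squares) for every probe measured on all 3 arrays of 8 hemidesmosome and laminin genes, with the brightest probe of a gene filled and its other probes open. ITGB4, COL17A1, LAMA3 and LAMB3 lie between -0.85 and -0.54 at CA 50 μM by their brightest probes, and ITGA6, CD151, PLEC and DST do not.

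The mesenchymal regulators and vimentin stayed near untreated. VIM, the intermediate filament of mesenchymal cells, was at 5268%, 4825% and 4848%, with log2 ratios of -0.13 and -0.12, which turned positive under quantile normalization, cyclic loess and the authors' table. SNAI1 was at 45.7%, 45.8% and 43.4%, with 0.0030 and -0.07, and its CA 100 μM spot lay in the disturbed area. ZEB1 was at 88.7%, 92.2% and 84.3%, with 0.06 and -0.07, and its dimmer probe gave 0.16 and 0.40. ZEB2 was at 2.05%, 2.16% and 2.11%, with 0.07 and 0.04. SNAI2 read 7.71, 9.44 and 7.40 intensity units, and the brighter of both TWIST1 probes 6.62, 10.6 and 3.61, neither well above background on any array.

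Among the proteases and their inhibitors, MMP14, the membrane-bound collagenase MT1-MMP, was the single member at least 1.5-fold higher at both doses, as were 85 of the 14546 genes. It was at 1.55%, 2.79% and 2.38%, with log2 ratios of 0.84 and 0.62 and a spot-to-spot SD of 0.19 and 0.18 for dim probes. Its signals of 16.4, 33.6 and 29.7 units were low, where the dimmest probes well above background read 12.2, 12.5 and 14.8 units, and normexp background correction left ratios of 0.04 and 0.003. MMP9, a gelatinase, had 0.03 (SD 0.12 over 8 spots) and -0.16 (SD 0.13 over 8 spots), and MMP2, the other gelatinase, read 12.5, 2.86 and 6.37 units and was not well above background on any array.

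The inhibitors differed from one another. TIMP1 was at 3.68%, 2.71% and 4.33%, lower at CA 50 μM by a log2 ratio of -0.44 and higher at CA 100 μM by 0.23, which turned to -0.10 under normexp, with 0.26 in place of 0.67 between the doses. TIMP2 was at 403%, 297% and 349%, with -0.44 and -0.21, and TIMP3, which stays bound to the matrix, had 0.16 and 0.22. The epithelial splicing regulators, which set epithelial forms of transcripts including that of CD44, also stayed near untreated. ESRP2 was at 345%, 295% and 314%, with -0.23 (SD 0.057 over 10 spots) and -0.14 (SD 0.068 over 10 spots, 1 of them in the disturbed area), and ESRP1 at 5.08%, 5.69% and 5.06%, with 0.16 and -0.01.

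Where a member had 2 probes on all 3 arrays, the brighter probe gave the lower ratio without exception at either dose. This held for 10 of 10 genes at the smaller dose and 10 of 10 at the larger, with a median difference of -0.29 at each. Of the 3216 genes with several such probes over the whole array, 69.5% and 71.0% showed it. After cyclic loess, 10 and 9 of the 10 member genes still did. Between the doses, 6 of 10 did, beside 46.1% of all such genes. Ratios smaller than 0.29 on the log2 scale were thus no larger than the median difference between the 2 probes of these 10 genes. Over the 3216 genes, the median absolute difference was smaller, 0.23 at CA 50 μM and 0.18 at CA 100 μM.

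**Figure D5:**
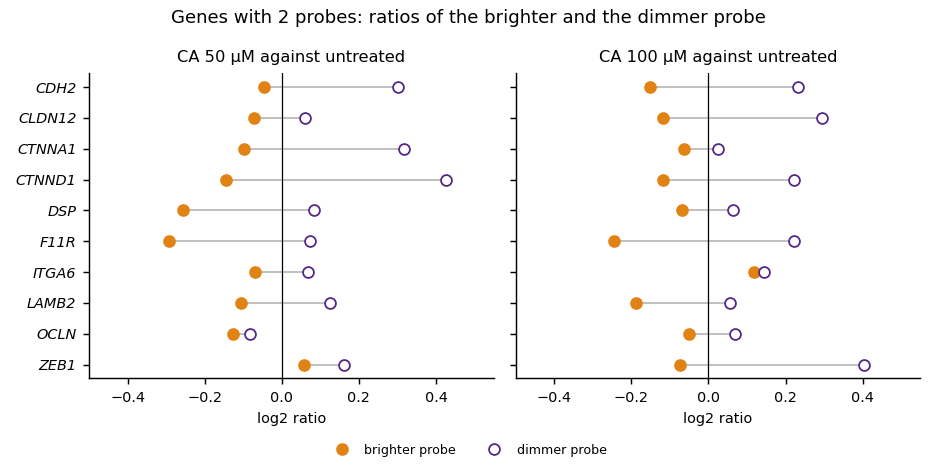
Log2 ratio to the untreated array (x axis) of the brighter (filled) and the dimmer (open) probe of the 10 members with 2 probes measured on all 3 arrays, at CA 50 μM and CA 100 μM. In every gene the filled point lies to the left of the open one at both doses.

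Beyond the members, 180 further genes of the same pathways in 8 lists were read. Of these, 131 were measured in each comparison with untreated. At CA 50 μM, 4 were at least 2-fold lower and 0 higher, where 76 and 67 of all 14700 genes were. At CA 100 μM 0 were lower and 1 higher, where 29 and 65 of 14639 were. The medians were -0.08 and -0.05. None was at least 2-fold apart in 1 direction at both doses. Between the doses, 3 of the 133 measured were at least 2-fold higher at CA 100 μM, where 85 of all 14665 were.

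Among the partners of CD44, MSN, the moesin that ties CD44 to actin, had the lowest ratio at CA 50 μM of all 131. It was at 7.68%, 2.50% and 10.7%, with log2 ratios of -1.62 and 0.47, and so was higher than untreated at the larger dose. Normexp background correction brought the 2-fold lower values of MSN, MMP7 and LAMA4 to -0.85, -0.94 and -0.63, under 2-fold. EZR and RDX, ezrin and radixin of the same family, had -0.22 and -0.02 at CA 50 μM and -0.04 and -0.05 at CA 100 μM. SPP1, osteopontin, which CD44 binds, was at 31.6%, 20.9% and 34.3%. The hyaluronan synthases HAS2 and HAS3 had -0.20 each at CA 50 μM, and HAS1 had 0.31.

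CTNNB1, the β-catenin that cadherins hold at the membrane, gave opposite values by its 2 probes. The brighter was at 223%, 94.4% and 140.5%, with log2 ratios of -1.24 and -0.66, and 1 of its 10 spots on the CA 100 μM array lay in the disturbed area. The dimmer was at 4.49%, 17.7% and 7.98%, with 1.98 and 0.83. Of the other cadherin genes, PCDH1 had -0.60 and -0.33. Among the tight junction genes, CLDN3 had -0.99 and -0.65, with its CA 100 μM spot in the disturbed area. JAM3, at low signals of 2.83%, 1.85% and 1.44%, had -0.62 and -0.98, which became -0.34 and -0.40 under normexp.

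Of the other matrix and protease genes, LAMA4, the α4 laminin chain of vessels and mesenchyme, was at 5.22%, 2.22% and 3.31%, with -1.23 and -0.66. LAMC3 had 0.66 and 0.31. MMP7, or matrilysin, a protease of epithelial cells, was at 20.3%, 8.50% and 33.8%, with -1.25 and 0.74, and like MSN and KRT14 lay lower than untreated at CA 50 μM and higher at CA 100 μM. BSG, basigin, an inducer of matrix proteases, was at 328%, 639.6% and 339%, with 0.96 and 0.04. Of the integrin and focal adhesion genes, ACTN4, α-actinin 4, had 0.86 and 0.27, with 3 of its spots on the CA 100 μM array in the disturbed area. ITGB6, at low signals of 1.89%, 2.15% and 3.52%, had 0.18 and 0.90, which became -0.09 and 0.07 under normexp. Of the other desmosome genes, DSC2, the cadherin partner of DSG2, had 0.35 and 0.40. Of the other state regulators, TCF4, a factor of the mesenchymal side, was at 26.3%, 47.6% and 55.1%, with 0.86 and 1.07, and GRHL3, a factor of the epithelial side, had -0.61 and -0.41.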

How the data were processed

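Total RNA of 3 groups of Huh7 cells was hybridised to 1 one-colour array per group, and groups were taken from the sample labels. The authors read the scans with Agilent Feature Extraction 11.0.1.1. Their deposited files give an intensity for each spot, after background subtraction and without scaling between arrays. A log2 table, 1 value for each probe and array, was deposited too, whose method is not given in the sources used here. Its columns share a median of 6.22, and it served as an alternative.

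Here, log2 intensity was taken minus the 75th percentile of each array, without control spots and the 429, 569 and 596 gene spots with an outlier flag (untreated, then CA 50 μM, then CA 100 μM). Spots of 1 probe were averaged, and 50% of its spots had to be well above background for a probe to be measured. Of 34127 probes, 25771 (75.5%) were named by RefSeq accession through a GRCh38.p14 table. A gene was given by its brightest probe measured on the most arrays. Ratios were formed where both arrays were well above background, otherwise bounds. Disturbed areas were windows of 17 by 7 spots in which at least 5 spots and 25% of those dim on both other arrays were 4-fold brighter. No coordinates of probes are given, since the array was annotated on GRCh37.

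The members and lists were chosen with earlier results of these data known. Members named with all values were CD44, those with a 2-fold difference or bound or 1.5-fold from untreated at both doses, the 2 with the largest ratio in each role, CDH1, CDH2, VIM, FN1 and the SNAI, TWIST and ZEB genes, and of each further list the 2 largest changes. The remaining members are given with their ratios. LAMA3, LAMB3, DST, CD151 and KRT14 were picked after their values were seen. EZR, RDX, HAS1, HAS2, HAS3 and VTN also lie outside these rules. The arrays' number limits the precision, and no p-value was computed. The steps were tested on simulated data, where 200 of 200 probes changed 4-fold were recovered among 22114 with 0 other calls, for CA 50 μM against untreated. No measured member differed 2-fold, and recovery of changes as small as theirs was not tested. Python 3.11.15, numpy 2.4.6, pandas 2.3.3, R 4.3.3 and limma 3.58.1 were used.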

Additional observations from a re-analysis of the deposited data

How the results depend on the processing

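Across 11 other processing settings, the sign of a member's ratio was kept in all for 37 of 49 members with CA 50 μM, 34 of 49 with CA 100 μM and 35 of 49 between the doses. These counts are generous. The filter settings leave the ratio of a measured member as it was, and averaging probes does so for a member with 1 probe. The dimmest probe of a gene is not among the 11, so that F11R counts as kept though its dimmer probe gave 0.07 and 0.22 against untreated. CD44 stayed between -0.58 and -0.49 at the smaller dose and between -0.28 and -0.25 at the larger. The count of members at least 2-fold apart, 0 in each comparison, became 2 at CA 50 μM (CLDN5, MMP2), 4 at CA 100 μM (CLDN5, ITGA3, MMP2, TWIST1) and 3 between the doses (ITGA3, MMP2, TWIST1) with no filter on dim probes. With the filter on 1 of both arrays it became 1, 2 and 1 (CLDN5; CLDN5 and ITGA3; ITGA3). At 1.5-fold it became 5, 3 and 2, by construction. An alternative added after seeing the data, the dimmest probe of a gene in place of the brightest, moved the median of members to 0.0030 and 0.025 with CA 50 μM and CA 100 μM. The cause was not tested. Neither a block for slide and scan nor a fit without 1 replicate could be had, since each group is 1 array. No paired analysis was possible because no group has a second array. Signal near background limits COL17A1, MMP14, ITGB6, JAM3 and the genes given as bounds.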
